A study of Mus musculus with 28 samples.

Results

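The whole span of tumor growth sampled in the study was examined in tumor-bearing mice: subcutaneous scaffold implants taken 21 days after tumor inoculation were compared with implants taken 7 days after it. The comparison was chosen by label, as all 6 samples of those groups out of 28 in the study, and it covers all 648 assays of the panel. The 3 day 21 samples (replicates 26, 27 and 28) and the 3 day 7 samples (replicates 4, 5 and 6) each came from a separate female BALB/c mouse inoculated with 4T1-luc2-tdTomato cells, a mouse mammary carcinoma line that carries luciferase and a red fluorescent protein. Every mouse, healthy ones included, carried a microporous implant of the polyester polycaprolactone (PCL), which fills with immune, stromal and epithelial cells and serves as a surrogate tissue that can be biopsied. Samples from tumor-bearing mice at day 14 (8 mice), and from tumor-free mice at days 7, 14 and 21 (3, 8 and 3 mice), are used beside them. All tumor-bearing mice received the same single line, and the labels name that line for healthy mice as well.

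Neutrophils are short-lived phagocytes made in the bone marrow, and they package their antimicrobial proteins into granules in the order in which the genes are switched on during maturation. The primary (azurophil) granule proteases are transcribed in promyelocytes, the secondary granule proteins in myelocytes, and mature blood neutrophils carry the finished proteins with little of these mRNAs. The 4T1 tumor is known for a pronounced expansion of granulocytes in the blood and spleen of its host, which includes immature forms.

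Transcripts were measured by reverse transcription and TaqMan quantitative PCR on a nanolitre-scale array. Values are given here as log2 relative quantity, the mean quantification cycle (Cq) of 5 reference genes, Gapdh among them, minus the Cq of the assay, so that 1 unit is 1 cycle, a doubling of template at full amplification efficiency, and a negative value lies below the reference mean. The panel's 648 assays target 584 genes, 50 of them with several assays. Reactions without a value numbered 459 of 3888 in the 6 samples. Day 21 samples had 566, 572 and 583 assays with a value, and day 7 samples had 560, 569 and 579. The Spearman correlation of values was 0.949 to 0.985 between day 21 samples and 0.98 to 0.989 between day 7 samples, across assays that are not independent replicates. Between day 21 and day 7 samples it was 0.947 to 0.983, a range close to that between day 21 samples.

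Before any comparison, 1 sample stood apart. Day 21 replicate 26 had 9 reactions that crossed more than 4 cycles before the median of its group, and 4 of its reactions had a Cq under 10, the earliest at 3.65. Its value for Hsp90ab1, a cytosolic chaperone, was 14.78, against 1.65 and 1.18 in the other day 21 samples. Day 7 replicate 4 had 1 such reaction, Aif1, a macrophage calcium-binding protein, at 14.44, against -1.56 and -1.89 in the other day 7 samples. These genes were named after their values were seen, and the results below are also given without replicate 26 where it matters.

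Neutrophil granule genes rose at day 21, and no assay fell past the threshold. Ela2 (current symbol Elane, neutrophil elastase, a primary granule protease), Prtn3 (proteinase 3, its neighbour and paralog) and Camp (the cathelicidin antimicrobial peptide of secondary granules) were the only calls among 567 assays tested with limma at an adjusted p under 0.05, a share of 0.529%. Unadjusted p fell under 0.05 for 50 assays, 31 of them higher at day 21 and 19 lower. The median log2 difference over the 567 assays was 0.068, the median absolute difference was 0.23 and the median standard error was 0.36. Without day 21 replicate 26 the same 3 genes were called. Differences are day 21 minus day 7 from the model fitted to all 28 samples.

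Ela2 had log2 values of -6.31, -5.32 and -5.33 in day 21 tumor-bearing mice and -11.28, -14.56 and -15.01 in day 7 tumor-bearing mice, at Cq 24.7, 23.8 and 24.2 against 30.2, 33.8 and 33.3. Every day 21 sample lay more than 4 cycles above every day 7 sample. The difference was 8.00 ± 1.03 (SE), a 256-fold rise (95% interval 57.6 to 1140, adjusted p = 0.000148, limma with Benjamini-Hochberg adjustment). The day 7 reactions crossed late and spread over more than 3 cycles, and the interval of the fold is wide.

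Prtn3 had -4.64, -4.07 and -3.91 in day 21 tumor-bearing mice, against -10.81 and -10.26 in day 7 replicates 4 and 5 and no value in replicate 6. The groups did not overlap among the values recorded. The difference was 6.28 ± 1.08 (SE), 77.6-fold (95% interval 15.9 to 378, adjusted p = 0.00492, limma), and it rests on 2 day 7 values, so that leaving out either one left it untested.

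Camp had -2.68, -2.39 and -2.41 in day 21 tumor-bearing mice and -9.20, -9.71 and -9.16 in day 7 tumor-bearing mice. Its day 21 samples lay within 0.3 of each other. The difference was 6.69 ± 1.13 (SE), 103-fold (95% interval 20.3 to 525, adjusted p = 0.00169, limma).

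Elane and Prtn3 lie next to each other on mouse chromosome 10 (GRCm38.p6, plus strand), with 3137 bases between the end of Prtn3 at 79883174 and the start of Elane at 79886312. Their promoters are shown because the genes rose together. Each sequence is the 300 bases from 250 before to 50 after the gene's start, from RefSeq on GRCm38.p6: chr10:79886062-79886361 for Elane and chr10:79879417-79879716 for Prtn3. Capitals mark exact matches to a core of the PU.1 motif, GAGGAAGT. They also mark a core of the MYB motif, CAACGG, where it occurs. A TATA-like element, TATAAG, is the last of the marked patterns.

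Elane: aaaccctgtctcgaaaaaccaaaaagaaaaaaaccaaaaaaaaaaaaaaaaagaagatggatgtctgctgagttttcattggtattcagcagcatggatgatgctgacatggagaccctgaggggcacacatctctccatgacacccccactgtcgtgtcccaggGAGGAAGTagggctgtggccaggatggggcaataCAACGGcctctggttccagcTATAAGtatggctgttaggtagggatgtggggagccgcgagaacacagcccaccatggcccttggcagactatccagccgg
Prtn3: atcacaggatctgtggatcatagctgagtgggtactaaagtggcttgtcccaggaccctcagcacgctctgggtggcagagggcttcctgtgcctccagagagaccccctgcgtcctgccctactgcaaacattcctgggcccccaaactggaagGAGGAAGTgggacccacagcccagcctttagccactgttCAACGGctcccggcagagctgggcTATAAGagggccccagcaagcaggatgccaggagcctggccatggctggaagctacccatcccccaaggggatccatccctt

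In Elane the capitals begin 85, 51 and 31 bases before the start, and in Prtn3 they begin 95, 56 and 32 bases before it. On both strands, the PU.1 core was found in 3.2% of 32851 promoters of this length, the MYB core in 5.12% and the TATA-like element in 7.43%; the 3 do not overlap in these windows. A C/EBP pattern, TTNNGCAA, was found in 10.8% of them and not in the windows of Elane, Prtn3 and Camp. Camp (chr9:109849407-109849706, minus strand) held no match to any of the 4 patterns. The patterns were settled after the Elane and Prtn3 sequences had been read, and a match describes letters only.

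**Figure D1:**
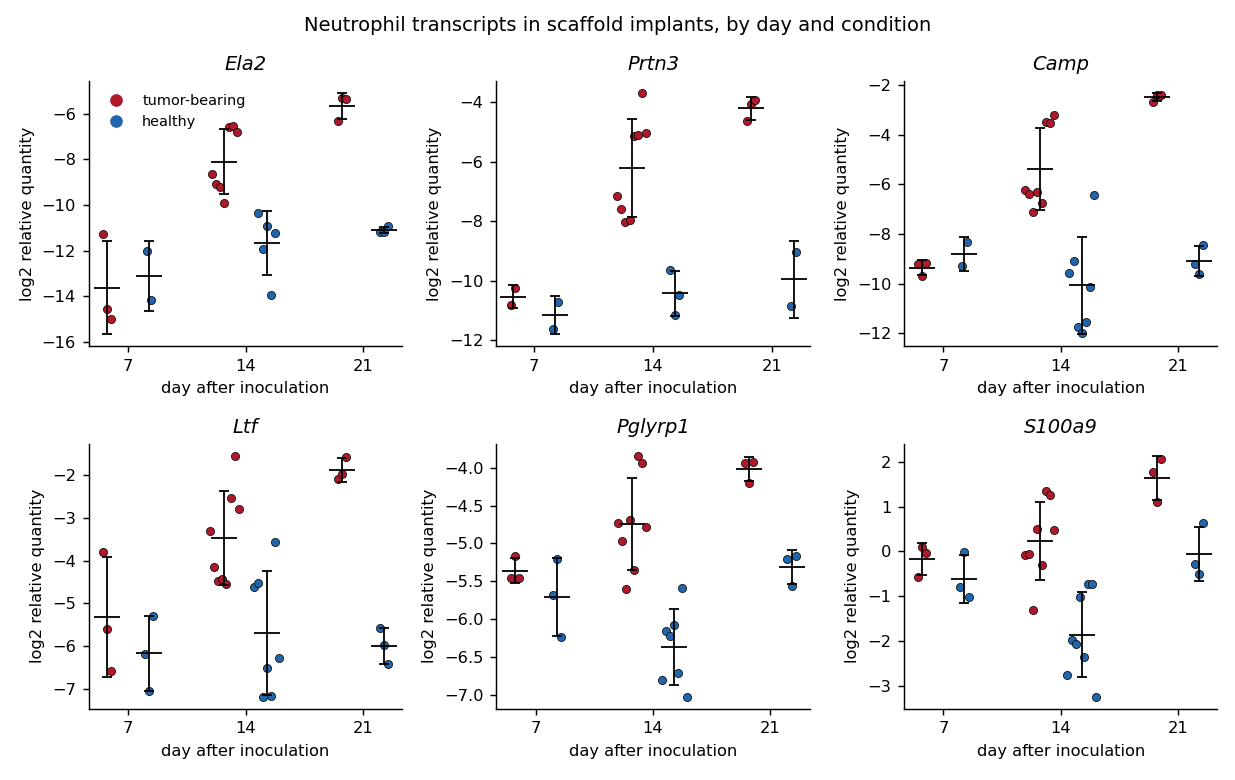
Log2 relative quantity of 6 neutrophil genes in each scaffold implant (points, with bars for mean and SD). Tumor-bearing (red) and healthy (blue) mice are shown at days 7, 14 and 21. The days count from inoculation in tumor-bearing mice, and healthy mice of the same days carried no tumor. Reactions without a value are left out. In tumor-bearing mice at day 21 Ela2, Prtn3 and Camp lie above all of the day 7 and healthy samples plotted.

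Day 14 medians lay between the values of the other days. In tumor-bearing mice Ela2 ran over a day 14 range of -9.91 to -6.55 (median -8.65, 7 of 8 samples with a value), Prtn3 over -8.03 to -3.70 (median -6.15, n = 8) and Camp over -7.10 to -3.23 (median -6.27, n = 8). The lowest day 14 value of each gene was above all of its day 7 values, and for Prtn3 the highest day 14 value was above all 3 day 21 values. From day 7 to day 14, Ela2 was the only call, at 5.63 ± 0.88 (SE), 49.4-fold (adjusted p = 0.00226, limma; 1 of 571 assays, 0.175%). Prtn3 (4.46 ± 0.93, adjusted p = 0.0575) and Camp (4.04 ± 0.95, adjusted p = 0.0587) did not pass. Between day 14 and day 21 limma called 0 of 583 assays, with 60 at an unadjusted p under 0.05. Ela2 was 2.38 ± 0.88 higher at day 21 (adjusted p = 0.288), Prtn3 1.82 ± 0.80 (adjusted p = 0.408) and Camp 2.65 ± 0.95 (adjusted p = 0.288). These contrasts share samples with each other and with the day 21 and day 7 contrast, so their values are not independent of it.

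Healthy mice of the same days carried implants and no tumor. Over this span limma called 0 of 570 assays in healthy mice, with 57 at an unadjusted p under 0.05. Camp had -9.19, -9.63 and -8.43 in healthy day 21 mice and -9.30 and -8.33 in healthy day 7 mice, with no value in the third, for a difference of -0.38 ± 1.26 (SE). Ela2 had -11.19, -11.17 and -10.93 in healthy day 21 mice, against -12.03 and -14.18 in healthy day 7 mice, with no value in the third, and 1.96 ± 1.15 as its difference. Prtn3 had -10.86 and -9.04 in healthy day 21 mice, against -11.61 and -10.71 in healthy day 7 mice, with 1 value lacking in each group (1.16). For the 3 genes, all 3 day 21 tumor-bearing samples were above every healthy sample with a value.

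The test of the difference between conditions, tumor-bearing change minus healthy change, called 0 of 560 assays, with 22 at an unadjusted p under 0.05. The called genes had differences of 7.07 ± 1.67 for Camp (adjusted p = 0.196), 6.04 ± 1.52 for Ela2 (adjusted p = 0.232) and 5.12 ± 1.58 for Prtn3 (adjusted p = 0.953). This test does not show the tumor-bearing changes to exceed the healthy ones. With panel as a fixed block the test called Camp (6.56, adjusted p = 0.0478) and Ela2 (6.65, adjusted p = 0.0357), and with the 4 groups of the contrast alone it called Camp (7.13, adjusted p = 0.000145). Without day 7 tumor-bearing replicate 4 it called Ela2 (7.12, adjusted p = 0.0462). None of these genes was called in the other settings. When each reaction without a value was set to the largest Cq, the differences were 3.02 ± 3.64 for Camp and 3.28 ± 4.49 for Ela2. For Prtn3 that setting gave 9.29 ± 5.03.

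In both conditions, day 7 samples were run on panels A, B and C, and day 21 samples on panels E, F and C. Day and panel are therefore largely confounded in the day 21 minus day 7 contrast. Only panel C holds tumor-bearing samples of both days (replicate 28 at day 21 and replicate 6 at day 7). Within it Ela2 was 9.68 higher at day 21 and Camp 6.75 higher, while on the same panel healthy mice were 3.25 and -0.10 apart. For Prtn3 the day 7 reaction on that panel had no value. Day 14 samples link the other panels, and with panel as a fixed block the differences were 8.59 ± 0.90 for Ela2 (adjusted p = 0.000181, limma), 5.49 ± 0.99 for Camp (adjusted p = 0.00811) and 5.57 ± 0.68 for Prtn3 (adjusted p = 0.00279). Reactions without a value were written in another way on the panels that held day 7 replicates 4 and 5. Each reaction without a value was also set to the largest Cq in the table. Ela2, Camp and Prtn3 then stayed higher by 8.36 ± 3.28, 6.39 ± 2.65 and 9.74 ± 3.67 (SE). The adjusted p of each was 0.47 (limma). Ela2 and Camp had a value in all 6 samples of the contrast, so for them reactions were set only in other groups. Their standard errors in the main fit were 1.03 and 1.13.

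**Figure D2:**
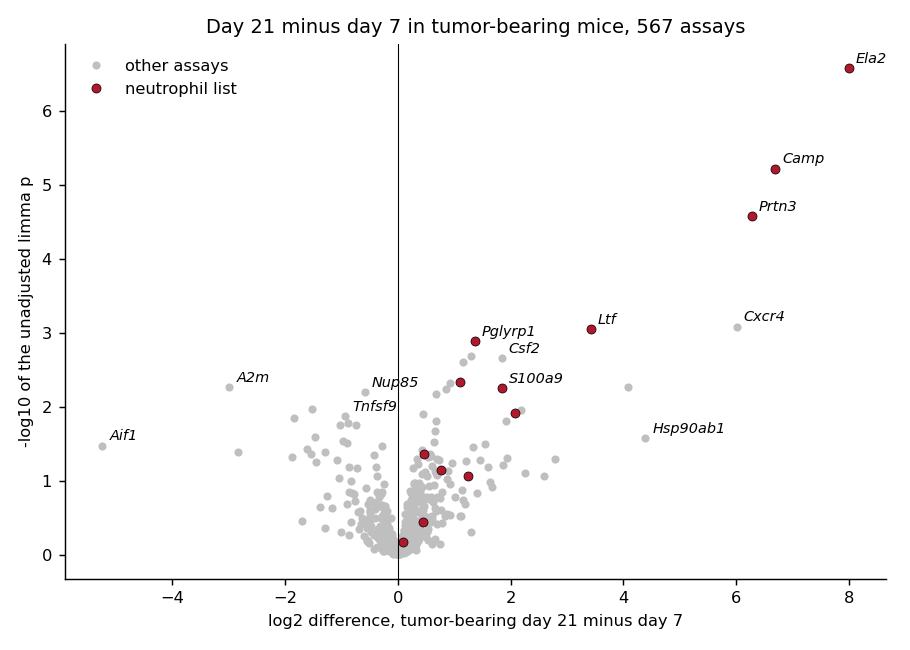
Log2 difference, day 21 minus day 7 in tumor-bearing mice (horizontal), against -log10 of the unadjusted limma p (vertical) for 567 assays; red marks the neutrophil list. Ela2 at 8.00, Camp at 6.69 and Prtn3 at 6.28 stand apart at the upper right, and Cxcr4 and Hsp90ab1 lie to the right through single reactions of replicate 26.

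The neutrophil list held 14 genes of the panel, 13 of them tested. Of these, 3 rose, 0 fell and 13 were above 0, with a median of 1.36 against 0.068 for all assays tested; the same list had a median of 0.43 in healthy mice. Among the 11 members with all 6 values, 9 had every day 21 sample above every day 7 sample, against 46 of 495 assays (9.29%) over the panel, and 0 had them below, against 26 (5.25%). In healthy mice the groups did not overlap for 93 assays with 6 values in the upward direction (17.7%) and 48 in the downward one (9.13%). Here scaffold RNA is a mixture of cells, so more neutrophils and more of these mRNAs per neutrophil cannot be told apart. The list median was 1.58 without replicate 26. This list and its members were chosen with earlier results of these data known, so the counts describe the list and are not a test of it. Itgam, which neutrophils share with macrophages, was placed in the macrophage list and stood at -0.08 ± 0.24. Members described below the called 3 are partly outside the rule that chose named genes and were added after their values were seen.

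Secondary granule genes other than Camp were higher at day 21 without passing the test. Ltf (lactoferrin, an iron-binding antimicrobial protein) had -2.10, -1.98 and -1.57 in day 21 tumor-bearing mice and -3.80, -5.59 and -6.58 in day 7 tumor-bearing mice, for 3.42 ± 0.90 (SE, adjusted p = 0.101, limma). Its groups did not overlap. It passed in 1 of 16 alternatives, the fit without day 7 replicate 4 (4.24, adjusted p = 0.033, limma). With panel as a fixed block it stood at 3.28 ± 1.08 (adjusted p = 0.378, limma). Pglyrp1 (a peptidoglycan-binding granule protein) had -3.93, -4.20 and -3.92 at day 21 and -5.46, -5.17 and -5.46 at day 7, for 1.36 ± 0.37 (SE, adjusted p = 0.123). It passed in 2 of 16 alternatives, with panel as a fixed block (1.51, adjusted p = 0.0471, limma) and with the groups of the contrast alone (1.34, adjusted p = 0.036). Itgb2l, an integrin subunit relative found in maturing neutrophils, had -7.94, -8.51 and -9.90 at day 21 and no value in any day 7 sample, so it has no fold. Its healthy values were -12.42 and -11.63 at day 21 and -11.78 and -11.85 at day 7, with 1 sample of each group lacking one.

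The calprotectin genes, whose products form a calcium-binding heterodimer abundant in the neutrophil cytoplasm, were also higher in value at day 21. S100a9 had 1.77, 1.11 and 2.05 in day 21 tumor-bearing mice and -0.56, 0.10 and -0.04 in day 7 tumor-bearing mice (1.84 ± 0.60, adjusted p = 0.22). S100a8 had 1.83, 0.90 and 1.80 at day 21 and -0.83, -0.52 and -0.45 at day 7 (2.07 ± 0.76, adjusted p = 0.337). Neither gene's groups overlapped. The chemokine receptor Il8ra (Cxcr1) was 1.11 ± 0.36 higher in day 21 tumor-bearing mice (adjusted p = 0.22), and in healthy mice it was 1.34 ± 0.36 higher. The receptor Il8rb (Cxcr2) stood at 0.76 ± 0.40, the formyl peptide receptor Fpr1 at 0.44 ± 0.47, the oxidase subunit Cybb at 0.46 ± 0.21 and its cytosolic partner Ncf1 at 0.09 ± 0.22. These members of the mature neutrophil's machinery had smaller estimates than the granule genes, and no test of that contrast was made.

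Chi3l3 (current symbol Chil3, a chitinase-like lectin of myeloid cells) had estimates of opposite sign in tumor-bearing and healthy mice. It had -5.09, -5.27 and -4.38 in day 21 tumor-bearing mice and -6.43, -6.26 and -5.93 in day 7 tumor-bearing mice, against -8.71, -7.62 and -7.91 in healthy day 21 mice and -7.19, -6.18 and -6.62 in healthy day 7 mice. The differences were 1.25 ± 0.70 (adjusted p = 0.629) and -1.46 ± 0.70 (adjusted p = 0.482), so neither passed. The difference between the conditions was 2.71 ± 0.98 (adjusted p = 1, limma).

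**Figure D3:**
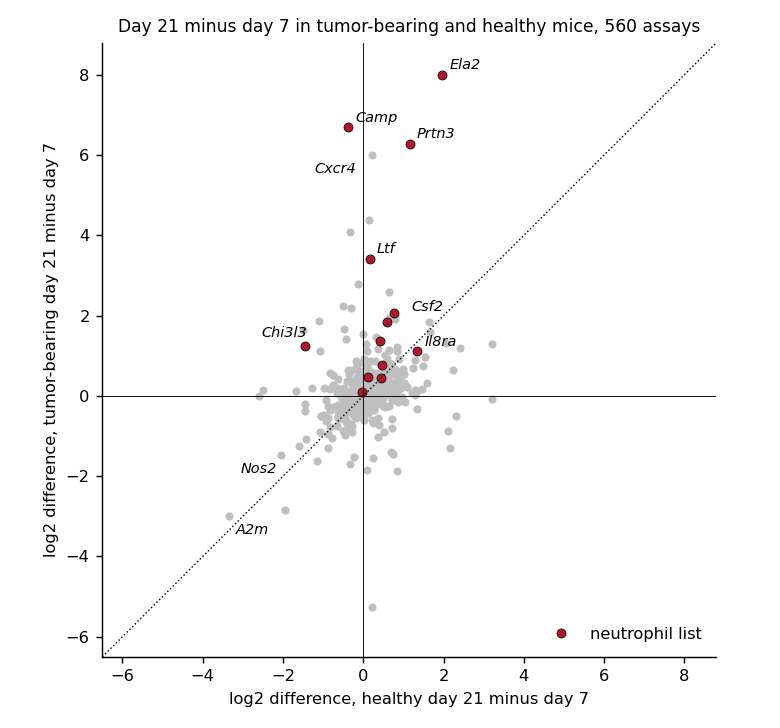
Log2 difference, day 21 minus day 7, in tumor-bearing mice (vertical) against healthy mice (horizontal) for 560 assays with both; red marks the neutrophil list and the dotted line marks equal differences. Camp lies at 6.69 in tumor-bearing and -0.38 in healthy mice, and A2m lies near the line at -2.99 and -3.35.

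A list of neutrophil-attracting chemokines, growth factors and IL-17 cytokines held 9 genes of the panel. Of these, 7 were tested, 0 passed in either direction, and the median was 0.12. Il17a and Il17f were the genes not tested. Csf2 (GM-CSF) had -7.25, -7.61 and -6.80 in day 21 tumor-bearing mice and -8.52, -9.25 and -9.47 in day 7 tumor-bearing mice, with no overlap (1.84 ± 0.54, adjusted p = 0.154). The healthy difference of Csf2 was 1.65 ± 0.54, and its second assay gave 1.59 ± 0.82 in tumor-bearing mice. Cxcl2, a Cxcr2 ligand, had -3.16 and -2.61 at day 21 with no value in replicate 26, and -1.48, -0.58 and -0.92 at day 7 (-1.84 ± 0.69, adjusted p = 0.349). Its healthy difference was 0.10 ± 0.62. Csf3 (G-CSF), which lacked a value in some of the 6 samples, stood at -1.39 ± 1.11 in tumor-bearing mice (adjusted p = 0.881, limma). The ligands Cxcl1 and Cxcl5 stood at 0.15 and 0.17 in tumor-bearing mice. Il17f, an epithelial-acting cytokine upstream of such chemokines, had -10.83, -11.33 and -12.06 at day 21 and no value at day 7.

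A value in all 3 day 21 samples and in no day 7 sample was seen for 6 of 621 assays (0.966%), namely Cd46, Il17f, the second assay of Il2, Itgb2l, Kng1 and Prok2, and the converse for 0. In healthy mice the same pattern held for 1 of 628 (0.159%). Day 7 replicates 4 and 5 were run on panels A and B, which held no day 21 sample. For these replicates, a value lacking because of the day cannot be told apart from a value lacking because of the panel. Day 21 values of Cd46, Il17f, Kng1 and Prok2 lay between -12.82 and -10.68, late in the run. Cd46, a regulator of complement, had -11.28, -12.00 and -12.14. Kng1, the kininogen that bradykinin is cut from, had -12.44, -12.49 and -12.08. Prok2, a chemokine-like peptide made by neutrophils, had -12.82, -10.80 and -10.68.

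Receptor and matrix genes were among the next smallest p-values above 0. Cxcr7, a scavenging receptor for Cxcl12, had -8.55, -8.68 and -8.31 in day 21 tumor-bearing mice and -10.45, -9.16 and -9.36 in day 7 tumor-bearing mice (1.15 ± 0.34, adjusted p = 0.154). Ltbp4, which holds latent TGF-beta in the matrix, had -2.48, -3.42 and -3.06 at day 21 and -4.24 and -4.31 at day 7 with no value in replicate 4 (1.29 ± 0.37, adjusted p = 0.154). Its second assay gave 0.68 ± 0.37 (adjusted p = 0.618). Cxcr4, the other receptor of Cxcl12, had 11.57 in replicate 26, no value in replicate 27 and -0.06 in replicate 28, against -0.14, -0.52 and -0.38 at day 7; its difference of 6.01 (adjusted p = 0.101) was 0.33 within panel C. The second assay of Fabp4, a fatty acid carrier of fat cells, had 10.80 in replicate 26, where the first assay had 2.48.

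**Figure D4:**
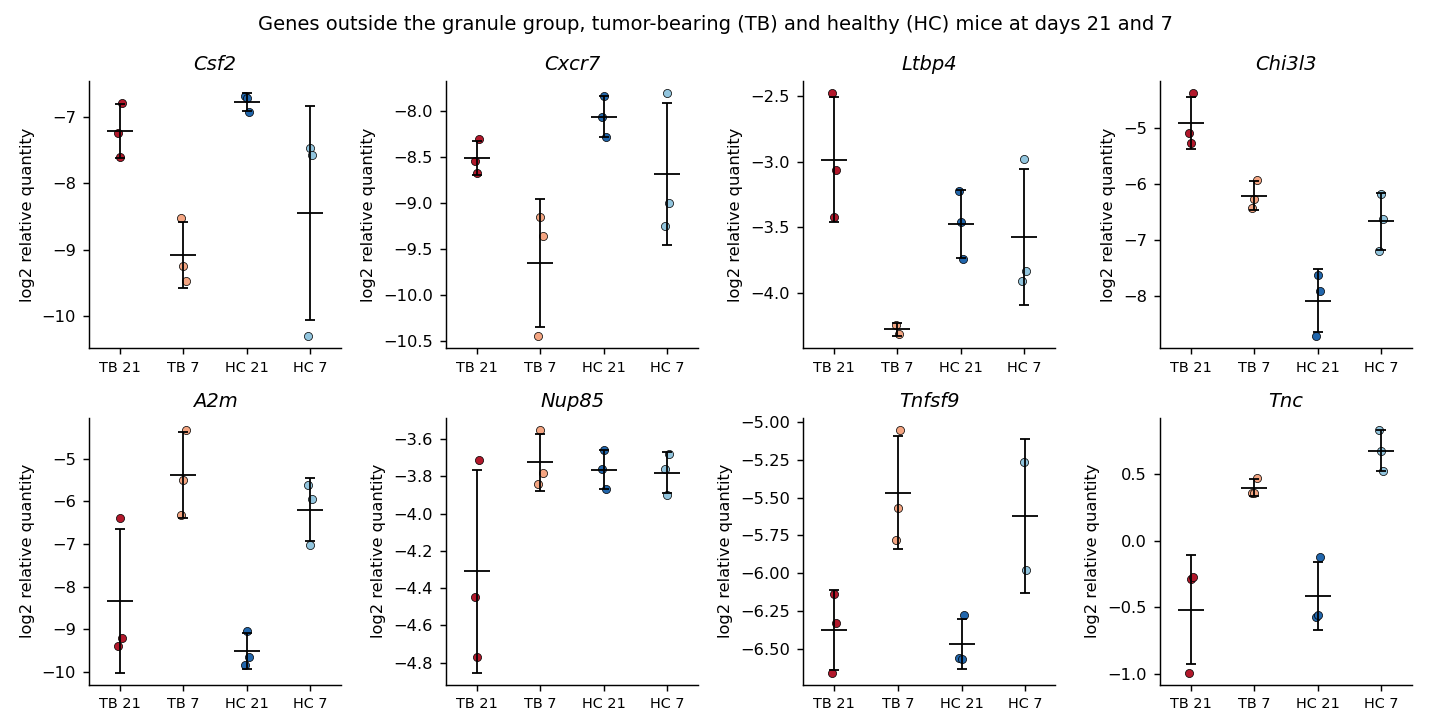
Log2 relative quantity of 8 genes in each implant (points; bars are mean and SD) for tumor-bearing (TB) and healthy (HC) mice at days 21 and 7. A2m and Tnc are lower at day 21 in both conditions, and none of the 8 passed the test in tumor-bearing mice.

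No assay fell past the threshold in tumor-bearing mice. The lowest p among falls belonged to A2m (a broad protease inhibitor of plasma), with -9.40, -6.39 and -9.21 in day 21 tumor-bearing mice and -6.32, -5.49 and -4.32 in day 7 tumor-bearing mice (-2.99 ± 0.98, adjusted p = 0.22). Its groups did not overlap. Healthy mice had a like difference for A2m, -3.35 ± 0.98. Tnc, a matrix protein of healing wounds, had -0.99, -0.29 and -0.27 at day 21 and 0.36, 0.36 and 0.47 at day 7 (-0.89 ± 0.34, adjusted p = 0.358), beside -1.07 ± 0.34 in healthy mice. Nos2, the inducible nitric oxide synthase, had -7.02 and -7.07 at day 21 and -6.19, -6.20 and -4.40 at day 7 (-1.47 ± 0.62, adjusted p = 0.488), beside -2.06 ± 0.55 in healthy mice. The tumor-bearing change minus the healthy change was 0.36 ± 1.36 for A2m, 0.18 ± 0.48 for Tnc and 0.59 ± 0.82 for Nos2, each smaller than its standard error.

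Nup85, a nuclear pore protein, had the next smallest p below 0. It had -4.45, -4.77 and -3.71 at day 21 and -3.84, -3.55 and -3.78 at day 7 (-0.59 ± 0.20, adjusted p = 0.224), with 0.02 ± 0.20 in healthy mice and -0.61 ± 0.28 between the conditions (adjusted p = 1). Its groups overlapped through replicate 28, which shares a panel with day 7 replicate 6 and stood 0.07 above it, and without replicate 28 the fall passed (-0.91, adjusted p = 0.00898). P2ry1, an ADP receptor, passed without day 7 replicate 6 (-1.58, adjusted p = 0.0474) and stood at -1.02 ± 0.40 with all samples (adjusted p = 0.36); within panel C it was 0.56 higher at day 21. Tnfsf9, a T cell costimulatory ligand, had -6.66, -6.14 and -6.33 at day 21 and -5.78, -5.57 and -5.05 at day 7 (-0.94 ± 0.35, adjusted p = 0.343), beside -0.88 ± 0.39 in healthy mice. Hif1a, the hypoxia-inducible transcription factor, stood at -0.74 ± 0.29 (adjusted p = 0.36).

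**Figure D5:**
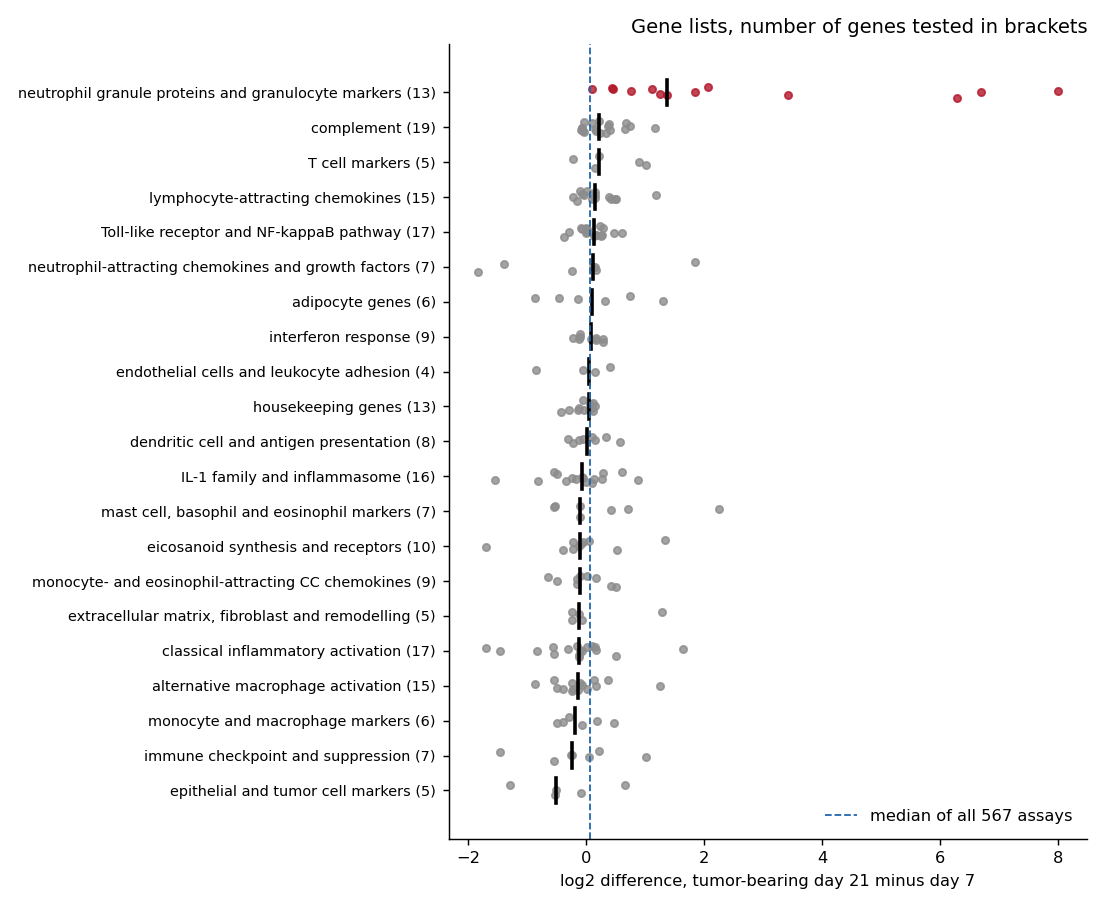
Log2 difference, day 21 minus day 7 in tumor-bearing mice, of each tested gene (points) in lists with 4 or more tested genes, with the list median (black bar) and the median of all 567 assays (dashed line, 0.068). The neutrophil list (red) has a median of 1.36, and the 20 other lists have medians from -0.51 to 0.21.

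No member of the other 22 lists passed in either direction. Monocyte and macrophage markers had a median of -0.19 over 6 genes, with Ccr2 highest at 0.47 ± 0.37 and Cd14, the co-receptor for bacterial lipopolysaccharide, at -0.30 ± 0.20. The integrin subunit Itgam, shared by neutrophils and macrophages, stood at -0.08 ± 0.24. Genes of alternative macrophage activation had a median of -0.14 over 15 genes, and genes of classical inflammatory activation -0.13 over 17, with Ptgs2 lowest at -1.70 and Ifng highest at 1.64. T cell markers had a median of 0.21 over 5 genes; Cd4 stood at 0.89 ± 0.48 and the regulatory T cell factor Foxp3 at 1.02 ± 0.71, both with no value in replicate 27. Eosinophil and mast cell markers had a median of -0.10 over 7 genes, with the eosinophil granule gene Prg2 at 2.25 ± 1.22 (adjusted p = 0.618) and -6.43, -8.37 and -7.08 in day 21 tumor-bearing mice against -9.23, -10.05 and -9.92 in day 7 tumor-bearing mice. Prg2 was -0.51 ± 1.36 in healthy mice. With panel as a fixed block, Prg2 stood at 0.95 ± 0.97 and Ccr2 at 0.05 ± 0.38 in tumor-bearing mice.

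Markers of other cell sources gave no call. Epithelial and tumor cell markers had a median of -0.51 over 5 genes. Krt8, a keratin of simple epithelium, had -6.45, -5.85 and -10.40 in day 21 tumor-bearing mice and -3.79, -5.47 and -9.54 in day 7 tumor-bearing mice, and its groups overlapped. Adipocyte genes had a median of 0.09 over 6 genes in tumor-bearing mice and 1.54 in healthy mice. The tumor-bearing median was -0.74 without reactions over 4 cycles from the group median. It ran from -0.80 without day 7 replicate 6 to 1.22 without day 7 replicate 5. A difference between the conditions in this median was not tested. Housekeeping genes had a median of 0.04 over 13 genes, with Pgk1 at -0.42 ± 0.20 and Gapdh at -0.29 ± 0.13 in tumor-bearing mice, and -0.58 ± 0.20 and -0.35 ± 0.13 in healthy mice. Complement genes had a median of 0.21 over 19 genes, interferon response genes 0.08 over 9 and matrix genes -0.13 over 5. IL-1 family genes had a median of -0.07 over 16 genes, Toll-like receptor pathway genes 0.13 over 17, and immune checkpoint genes -0.25 over 7. A p above the threshold with 3 mice in each group does not show that a gene was the same on both days.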

How the data were processed

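RNA from 28 scaffold implants, 1 per mouse, was reverse transcribed and run on TaqMan OpenArray mouse inflammation panels, per the labels' protocols; the labels report RNA integrity numbers of 8.2 to 9.7. The authors deposited raw Cq (a score per reaction) and a normalized ratio. Per the deposited values, log2 of that ratio equals the mean Cq of 5 reference genes minus the assay's Cq, within 0.00012 cycles. The names of all 5 are not reported here. The software that called Cq is not given in the sources used here. Array files hold no read depth; 3 mice per group limit the precision.

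From these, log2 ratios were fitted with limma 3.58.1 (R 4.3.3) as 6 group means over all 28 samples, with the 7 panels as a random block (correlation 0.054), so estimates can differ slightly from differences of means. An assay was tested if at least 50% of a group had a value and each compared group had at least 2; 609 assays passed the first filter. p-values were Benjamini-Hochberg adjusted over all assays tested, with a threshold of 0.05. Missing reactions were left out. The code was tested on simulated data. List counts take each gene's first tested assay. Named genes were the smallest p-values per direction, called assays, list members with the smallest p-values, assays with values on 1 day only, and second assays of these. Members and lists were chosen with earlier results of these data known. Symbols are those of the files; 618 of 648 assays matched 1 current RefSeq symbol, of which 21 differ. Alternatives changed the normalization, missing values, filter, panel term, samples, variance prior and replicates; the reference without Gapdh was chosen after seeing the data.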

Additional observations from a re-analysis of the deposited data

How the results depend on the processing

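Ela2 and Camp passed in 15 of 16 alternatives each and Prtn3 in 13 of 14; the exception, missing reactions at the largest Cq, left 1 call in tumor-bearing mice (Itgb2l), gave adjusted p = 0.47 for those 3 genes and made 1 call in healthy mice (Sftpa1); the cause was not tested. With the 312 assays measured in all 28 samples there were 0 calls (26 at an unadjusted p under 0.05, limma), because the 3 genes are not among them. The difference between conditions had 2 calls with panel as a fixed block and 1 with the groups of the contrast alone, and healthy mice had 13 with those groups alone. Leaving out 1 replicate gave 2 to 4 calls in tumor-bearing mice, 0 to 1 for the difference and 0 to 0 in healthy mice. It was 2 without day 7 replicate 5 (Camp and Ela2; Prtn3 untested), and without day 7 replicate 4 the 3 calls were Camp, Ela2 and Ltf. Raw Cq centring moved the median of all assays to -0.051, against 0.068, and the neutrophil median to 1.25. Some genes that were not called changed sign. With missing reactions at the largest Cq, Il6 stood at 0.54, Cd4 at -4.40, Foxp3 at -3.21, Xcr1 at -4.34, Alox5ap at 0.26, Retn at -3.93 and the second Fabp4 assay at -4.13. The second Il6 assay was 0.03 with panel as a fixed block. Retn was -0.60 without reactions over 4 cycles from the group median and -0.58 to 2.30 when 1 replicate was left out (-0.58 without day 7 replicate 6). The second Egfr assay was -0.07 with raw Cq centred, -0.02 without Gapdh in the reference, and -0.16 to 0.26 when 1 replicate was left out (-0.16 without day 7 replicate 5, -0.03 without day 21 replicate 26 or 27). No paired analysis was possible because replicate numbers, which run through all groups, are not shared; panels do link samples, and the fit with panel as a fixed block gave 4 calls in tumor-bearing mice (Camp, Ela2, Pglyrp1 and Prtn3). Late reactions (Cq over 30) limit the day 7 values of Ela2.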
